A study of Mus musculus with 2 samples.

Results

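B cells were taken from a single-cell RNA survey of whole mouse lung as the barcodes whose transcripts carried the B cell receptor signalling chains. A cell was counted as a B cell when Cd79a, Cd79b and Ms4a1 (CD20) together had at least 4 unique molecular identifiers (UMIs, one per captured transcript), the T cell receptor chains Cd3e, Cd3d and Cd3g had 0, C1qa, C1qb and C1qc of macrophages had at most 2, and Jchain of antibody-secreting cells made up less than 1% of UMIs. Of 27974 cells that passed the filters for quality, 3665 met the rule, 1967 of 12863 in the control library and 1698 of 15111 in the Cre library. The levels of those 10 genes chose the cells and are not results.

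B cells recognise antigen through a membrane immunoglobulin, and Cd79a and Cd79b carry its signal into the cell. A newly formed B cell shows immunoglobulin M on its surface, and on maturing into a follicular B cell it adds immunoglobulin D, whose heavy chain constant region is encoded by Ighd, through alternative processing of one long transcript. Cells that have switched class or become memory, B-1 or plasma cells lose most Ighd. Mature B cells also present antigen on MHC class II, and in a lung without infection most of them are thought to be recirculating follicular cells.

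The control library came from Lkb1f/f mice, which carry a floxed allele of Lkb1 (Stk11, a kinase that activates AMPK and related kinases) without Cre. The Cre library came from Nkx2.1 Cre;Lkb1f/f mice, in which the recombinase is driven from Nkx2.1, a gene of lung epithelium that B cells do not normally use. Lung cells of 3 mice aged 5 weeks were pooled for each library. Each genotype is therefore 1 library with no replicate, so no difference between genotypes could be tested. Every interval given is a 95% interval that covers counting error only and not the spread between mice.

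The label held against a marker the rule did not use. Pax5, the factor that holds B cell identity, had a UMI in 72.6% of control and 69.4% of Cre B cells and stood at 343 and 415 CPM, against 0.297 and 0.213 CPM in T cells, which were chosen by Cd3 UMIs in the absence of B cell UMIs. At the edge of the rule, the 24 control and 53 Cre cells with exactly 4 UMIs of the B cell genes had Ighd in 75% and 77.4%. The 30 and 63 cells left out with exactly 3 UMIs had it in 50% and 60.3%. Of cells with enough B cell UMIs, 74 control and 69 Cre cells were left out for a Cd3 UMI, 17 and 25 for C1q, and 3 and 15 for Jchain. The libraries shared 59 barcodes among kept cells and 1 among B cells.

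B cells of the Cre library had fewer UMIs per cell, which is called depth here. Their median was 2153 UMIs and 1027 genes per cell against 3247 UMIs and 1266 genes in control, and the summed UMIs were 5515385 and 8996294. Mitochondrial transcripts made up a median of 9.48% and 8.46%. The other kept cells had medians of 3666 UMIs in Cre and 3974 in control, and the cause of the lower B cell counts was not tested.

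Some cells that met the rule also carried many transcripts of other lung cells. Over 102 marker genes of 11 other cell types, 191 control and 190 Cre B cells took more than 1.5% of their UMIs from these genes. They were few but deep, with medians of 7126 and 6387.5 UMIs, and they held 22.5% and 28.4% of all B cell UMIs. Erythroid markers summed to 5455 CPM (summed UMIs scaled to counts per 1000000, over all genes) in control and 22599 in Cre over all B cells, and to 208 and 441 in the 1776 and 1508 cells at or under the limit. Macrophage markers went from 748 and 3178 CPM to 637 and 966, club and goblet cell markers from 30354 and 21938 to 1475 and 1121, and neutrophil markers from 3529 and 1477 to 243 and 139. T cell markers summed to 24.6 and 52.8 CPM over all B cells, with Cd3e, Cd3d and Cd3g at 0 by the rule. The limit of 1.5% was chosen after these values were seen. Results are given over all B cells and over the cells at or under that limit, which are called single-lineage B cells here only to name that set.

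**Figure D1:**
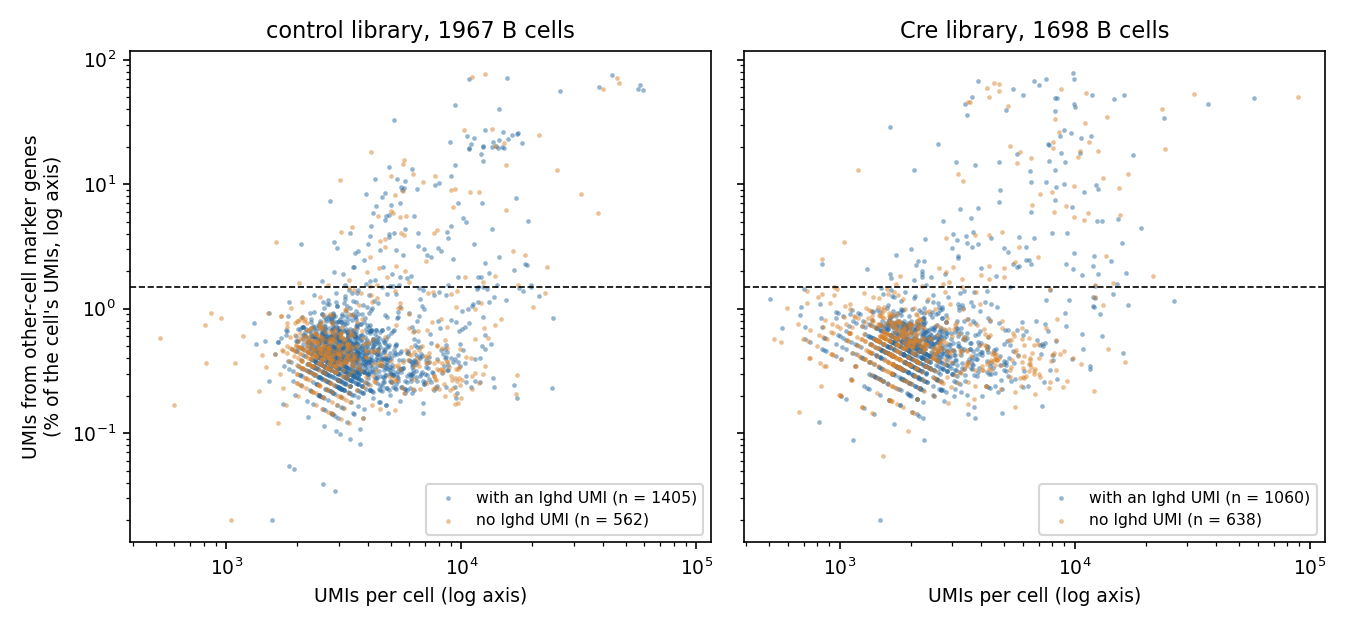
Share of each B cell's UMIs that came from 102 marker genes of other cell types (vertical, log axis, cells with none drawn at the bottom) against its UMIs (horizontal, log axis), with the control library on the left and the Cre library on the right. The dashed line is the limit of 1.5%, and the 191 control and 190 Cre cells above it lie mostly at high UMI counts in both colours, which mark cells with and without an Ighd UMI.

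B cells were a smaller share of the Cre library. They made up 15.3% (exact binomial interval 14.7 to 15.9) of kept control cells and 11.2% (10.7 to 11.8) of kept Cre cells, a log2 ratio of -0.44 (-0.54 to -0.35). Among cells with a UMI of Ptprc, the pan-leukocyte CD45 gene, the shares were 22.5% and 16.9%, a log2 ratio of -0.41. Single-lineage B cells made up 13.8% and 9.98%. T cells made up 8.32% and 7.38%, a log2 ratio of -0.17 (-0.30 to -0.05). A share of captured cells falls both when B cells are fewer and when other cells are more numerous, and the files do not separate these. The rule also asks for 4 marker UMIs at any depth, and B cells had a median of 19 in control and 13 in Cre. With at least 3 marker UMIs the log2 ratio was -0.41, and with at least 8 it was -0.63. The part of depth in the share was not tested. With 1 library per genotype the difference cannot be told apart from differences between cell preparations.

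Ighd split the B cells of each library. In control 1405 of 1967 B cells (71.4%, interval 69.4 to 73.4) had an Ighd UMI, and in Cre 1060 of 1698 (62.4%, 60.1 to 64.7). The Ighd-zero parts held 562 cells (28.6%) and 638 cells (37.6%). One Ighd UMI was found in 369 and 358 cells, 2 to 5 in 791 and 591, and 6 or more in 245 (12.5%) and 111 (6.54%), with the highest cell at 16 and 11. The counts thus ran without a gap from 0 upwards, and a cell with 0 UMIs is one in which Ighd was not captured.

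The lower Ighd share of the Cre library went with the lower UMI counts of its B cells. When each cell was thinned to 1000 UMIs, which left out 6 control and 63 Cre cells, Ighd was found in 43.2% (41.0 to 45.5) and 43.4% (40.9 to 45.8) of B cells. Among single-lineage cells the thinned shares were 41.6% and 43.5%. The summed level of Ighd was 527 CPM in control and 529 CPM in Cre B cells, a ratio of 1.004 (0.959 to 1.052). A difference in the Ighd-positive share was therefore not detectable at equal depth. T cells, which should lack the gene, had an Ighd UMI in 1.68% and 1.26% of cells, and in 0.0935% and 0.547% after thinning, at median depths of 5183.5 and 3396 UMIs.

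Ighd-positive and Ighd-zero cells were then compared within each library. Each library was taken by itself, as the ratio of CPM in its Ighd-positive over its Ighd-zero cells, and a gene was called when it was at least 1.5-fold higher or lower in both, so the libraries share a direction for every called gene by that rule. Of 8318 genes with at least 50 UMIs in each library, 84 (1.01%) were higher and 104 (1.25%) lower in Ighd-positive cells. Over single-lineage cells 79 (1.11%) were higher and 120 (1.69%) lower of 7121. The Ighd-positive cells had median depths of 3299 and 2212 UMIs, and the Ighd-zero cells 3072.5 and 2025.5. The split by Ighd is a choice on the same cells, so these are descriptions of the parts.

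Genes of follicular B cells were higher in the Ighd-positive part. Of 15 such genes, 7 were called higher in both libraries and 0 lower, beside 1.01% and 1.25% of all genes. Their median log2 ratios were 0.59 in control and 0.56 in Cre against all-gene medians of -0.05 and 0.00. Over single-lineage cells 5 of 15 were called higher, beside 1.11% of all genes. Fcer2a (CD23, the low-affinity receptor for immunoglobulin E and a mark of follicular cells) stood at 242 CPM in Ighd-positive and 83.7 CPM in Ighd-zero control cells, a ratio of 2.90 (2.52 to 3.34). In Cre B cells it stood at 270 and 88.8 CPM, a ratio of 3.03 (2.59 to 3.57). The gene was near 3-fold higher in both libraries, and over single-lineage cells the ratios were 2.77 and 2.62.

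Satb1, a chromatin organiser of lymphocytes, was 400 against 165 CPM and 463 against 184 CPM, ratios of 2.42 and 2.52. Cr2 (CD21, the complement receptor) had ratios of 2.77 and 1.60, Icosl (the ligand of ICOS on T cells) 2.51 and 1.5, Gpr183 (EBI2, an oxysterol receptor that positions B cells) 1.54 and 1.695, and Fcmr (the Fc receptor for immunoglobulin M) 1.52 and 1.57. Genes of the same list that were not called included Foxo1, with ratios of 1.10 and 1.06, Klf2 with 1.02 and 1.07, and Cxcr5, the follicle-homing receptor, with 1.10 and 1.07. The difference between the parts therefore lay in some follicular genes and not in others.

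Zfp318, which encodes the factor that permits alternative processing of the long heavy chain transcript into Ighd, followed the split. It stood at 91.7 against 36.5 CPM in control, a ratio of 2.51 (2.03 to 3.14), and at 89.5 against 41.8 CPM in Cre, a ratio of 2.14 (1.68 to 2.74). Among receptors for lipid and chemokine signals, Gpr174 (a lysophosphatidylserine receptor) had ratios of 3.78 and 2.66 and P2ry10, a related receptor, 2.27 and 1.82. Tnfrsf13c, the receptor for the survival factor BAFF, was not called, with ratios of 0.74 and 0.72. Of 19 BAFF, chemokine and homing receptors, 4 were called higher and 0 lower, beside 1.01% and 1.25% of all genes. Over single-lineage cells 3 were higher and 1 lower, beside 1.11% and 1.69%.

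The remaining genes that the naming rule took on the Ighd-positive side fell into separate kinds. Stat4, which transmits the interleukin-12 signal, had ratios of 3.12 and 2.98, and Pgap1, an enzyme that remodels GPI anchors, 2.68 and 2.64. Airway epithelial products, Scgb3a1, Reg3g, Tff2 and Bpifb1, also headed this side. In single-lineage cells Scgb3a1 had ratios of 1.18 and 1.11, Reg3g 1.21 and 1.16, and Bpifb1 0.504 and 0.241. Tff2 was at 0 CPM in Ighd-zero control cells. Over single-lineage cells the naming rule also took Ccl5, a T cell and NK cell chemokine, at 62.5 against 15.97 CPM in control and 45.8 against 10.8 CPM in Cre. Ccl5 was far higher in T cells, at 4749 and 1228 CPM.

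MHC class II genes were higher in the Ighd-positive part as well. Of 14 genes of class II presentation, 7 were called higher in both libraries and 0 lower, beside 1.01% and 1.25% of all genes. Their median log2 ratios were 0.69 and 0.63. Over single-lineage cells 6 of 14 were called. H2-Aa, an alpha chain, stood at 2616 against 1391 CPM in control, a ratio of 1.88 (1.82 to 1.95), and at 2163 against 1228 CPM in Cre, a ratio of 1.76 (1.68 to 1.84). The beta chains H2-Ab1 and H2-Eb1 had ratios of 1.82 and 1.63 in control and 1.7 and 1.55 in Cre. H2-Oa and H2-Ob, which restrain peptide loading, had ratios of 1.97 and 2.05 in control and 1.63 and 1.66 in Cre. Cd74, the invariant chain, was not called, with ratios of 1.36 and 1.27, nor was Ciita, the class II transactivator, with 1.497 and 1.35.

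Promoters of H2-Aa and H2-Eb1 are shown because 7 of 14 class II genes were called higher in the Ighd-positive part. Class II promoters share short upstream boxes, among them a Y box bound by NF-Y. The sequences are the 130 bases before the RefSeq start, read 5′ to 3′ on the gene's strand of GRCm38.p6, and capitals mark the 8 letters CTGATTGG, the form of the Y box that was searched. H2-Aa lies at chr17:34287824-34287953 on the minus strand, and H2-Eb1 at chr17:34305737-34305866 on the plus strand.
H2-Aa: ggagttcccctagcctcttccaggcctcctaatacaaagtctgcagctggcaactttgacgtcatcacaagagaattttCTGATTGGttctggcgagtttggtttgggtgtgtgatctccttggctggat
H2-Eb1: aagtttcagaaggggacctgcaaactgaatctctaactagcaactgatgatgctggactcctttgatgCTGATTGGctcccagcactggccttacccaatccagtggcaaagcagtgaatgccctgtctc
The first base of the match lies 51 bases upstream of the start of H2-Aa and 62 bases upstream of that of H2-Eb1. Over windows from 250 bases before to 50 after each start, and on either strand, the 8 letters were found in 1346 of 32851 windows (4.10%). Of the 10 class II genes with a window, 4 held them, H2-Aa, H2-Eb1, H2-Eb2 and H2-Oa. A match is a description of the letters and shows no binding.

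Genes of immature B cells were lower in the Ighd-positive part, that is, higher in Ighd-zero cells. Of 9 genes of immature and transitional cells, 5 were called lower in both libraries and 1 higher, beside 1.25% and 1.01% of all genes. Their median log2 ratios were -0.77 and -0.78. Over single-lineage cells 7 were lower and 1 higher. Vpreb3, a partner of nascent light chains in precursor and immature cells, stood at 282 CPM in Ighd-positive and 547 CPM in Ighd-zero control cells, a ratio of 0.52 (0.48 to 0.55), and at 210 and 364 CPM in Cre, a ratio of 0.58 (0.52 to 0.64). Rag1, the recombinase that assembles antigen receptors, was low everywhere, at 6.84 against 18.1 CPM and 7.09 against 26.3 CPM, and in T cells it stood at 20.9 CPM in control and 197 CPM in Cre. Cd24a, a surface protein highest on young B cells, had ratios of 0.59 and 0.62, Sox4, a factor of lymphocyte precursors, 0.64 and 0.54, and Myb 0.56 and 0.58. Cd93, another surface mark of transitional cells, was not called, with ratios of 0.91 and 1.23. The 1 member that was higher was Ms4a4c, with ratios of 2.52 and 2.22.

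Other named genes were higher in the Ighd-zero part. S100a6, a calcium-binding protein, stood at 545 CPM in Ighd-positive and 1473 CPM in Ighd-zero control cells, and at 501 and 1192 CPM in Cre, ratios of 0.37 and 0.42. Its relative S100a4 had ratios of 0.34 and 0.44, Crip1, a small LIM protein, 0.51 and 0.56, and the cyclin gene Ccnd2 0.46 and 0.53. Zbtb32, a repressor that limits memory responses and is found in B-1 cells, had ratios of 0.26 and 0.21. It was 1 of 2 marginal zone and B-1 genes called lower of 12 measured, beside 1.25% of all genes. Of 9 measured genes of atypical or memory B cells 0 were called in either direction. The named genes Ahnak2 (0.20 and 0.33), Cplx2 (0.42 and 0.36) and Prkar2b (0.43 and 0.42) were lower too. Lyz1 was at 0.45 and 0.14 over all B cells but at 0.94 and 1.81 over single-lineage cells. Its single-lineage levels were low, at 5.63 against 5.99 CPM in control and 8.52 against 4.71 CPM in Cre.

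Among constant regions, Ighm (the mu chain) was lower in Ighd-positive cells without reaching 1.5-fold, with ratios of 0.73 and 0.75. Ighg3 (gamma 3) was 7.64 against 25.8 CPM in control and 17.7 against 45.6 CPM in Cre, and Iglc1 (lambda 1) had ratios of 0.52 and 0.62. Igkc, the kappa chain, differed little, with ratios of 0.88 and 0.94. Igha, the third constant gene called lower of 7 measured, rested in control on few cells, with ratios of 0.0080 and 0.46. Of all genes, 1.25% were called lower. The lambda genes are near copies of one another, as are the gamma genes, and how shared reads were divided between them is not given in the sources used here.

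**Figure D2:**
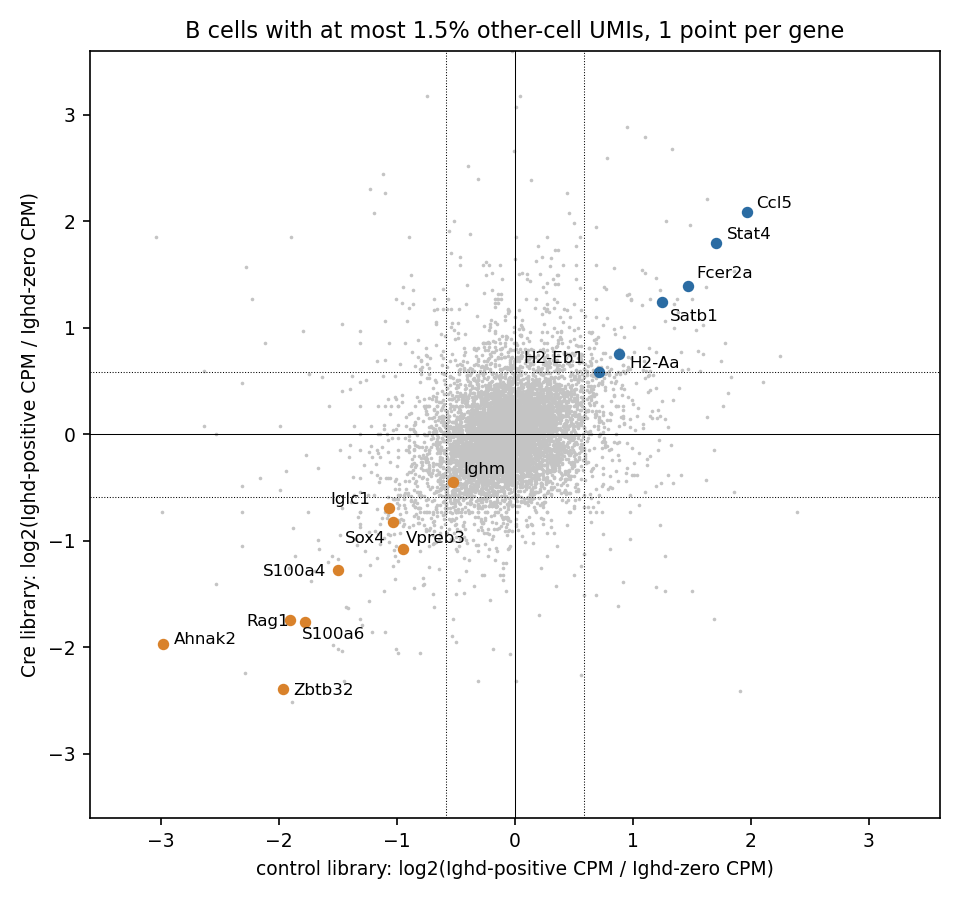
Log2 ratio of CPM in Ighd-positive over Ighd-zero single-lineage B cells, control library on the horizontal axis and Cre library on the vertical axis, with 1 grey point per gene and dotted lines at 1.5-fold. Fcer2a, Satb1 and Stat4 lie above 1.5-fold in both libraries, and S100a6, Zbtb32, Rag1 and Vpreb3 lie below it in both.

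Vpreb3 and S100a6 were mostly captured in different Ighd-zero cells. The split by S100a6 was chosen after the data were seen, and it was made on single-lineage cells thinned to 1000 UMIs. Of 491 control and 529 Cre cells without Ighd in their own UMIs, 89 (18.1%) and 98 (18.5%) had an S100a6 UMI, against 9.30% and 10.1% of Ighd-positive cells. Vpreb3 was found in 45% and 37.6% of Ighd-zero cells and in 24.2% and 21.8% of Ighd-positive cells. Only 14 control and 13 Cre cells of the Ighd-zero parts held both.

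Ighd-zero cells with S100a6 were high in Crip1, at 5067 CPM in control and 3143 CPM in Cre, against 985 and 722 CPM in Ighd-zero cells without it. Ahnak was at 719 and 867 against 119 and 148 CPM, and Ighg3 at 112 and 91.8 against 0 and 9.28 CPM. Like Vpreb3, the immature genes Sox4, Cd24a and Cd93 were lower in CPM in Ighd-zero cells with S100a6 than without, in both libraries. For Sox4 and Cd93 this rested on few UMIs. Sox4 was found in 4.49% and 4.08% of Ighd-zero cells with S100a6 and in 11.4% and 9.51% of those without. Cd24a was found in 29.2% and 26.5% of Ighd-zero cells with S100a6 and in 34.1% and 42.2% of those without. In Ighd-positive cells it was found in 19.2% and 23.3%. Rag1 in control stood at 0 CPM with S100a6 and 42.3 CPM without. In Cre it stood at 51.02 CPM, on 5 UMIs, with S100a6 and 48.7 CPM without. Cells without S100a6 were the higher ones in Vpreb3, at 1075 and 705 against 461 and 235 CPM, in Iglc1, at 2109 and 1891 against 1258 and 796 CPM, and in Ighm, at 8050 and 10044 against 5899 and 6673 CPM. They were also the higher ones in Spib, a B lineage factor, at 624 and 833 against 416 and 500 CPM. Fcer2a stayed below its level in Ighd-positive cells (338 and 383 CPM) in both kinds, at 0 and 61.2 CPM with S100a6 and at 142 and 186 CPM without. Before thinning, the cells with S100a6 were the deeper ones, with medians of 7724 and 4444 UMIs against 2770.5 and 1867, and the part of depth in these differences was not tested beyond the thinning.

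The libraries were then compared over their B cells. Of 10572 genes with at least 50 UMIs, 1380 (13.1%) were at least 1.5-fold higher in Cre B cells and 298 (2.82%) at least 1.5-fold lower. Over single-lineage cells 1094 (11.7%) were higher and 209 (2.24%) lower of 9334. In T cells of the same libraries 2185 (22.1%) were higher and 182 (1.84%) lower of 9901. The lean towards higher ratios thus appeared in both lymphocyte types, with an all-gene median log2 ratio of 0.14 in B cells and 0.22 in T cells, and dividing by the median ratio left 739 higher and 620 lower genes in B cells. The median log2 ratio in B cells went from 0.08 for genes with the shortest transcripts to 0.21 for those with the longest, over 4 bins of equal size, and in T cells from 0.17 to 0.31. With no replicates, none of these genes was tested.

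Over all B cells, several of the largest ratios came from single cells. On the Cre side, 98.0% of Clca1 UMIs (a goblet cell product, 781 UMIs against 1 in control) lay in 1 cell, as did 98.2% of Saa3, 96.0% of Ngp and 95.3% of Camp. On the control side 96.3% of Bpifa1 and 96.0% of Scgb3a1 lay in 1 cell. In single-lineage cells the ratio of Cre over control was 0.42 (0.124 to 1.15) for Ngp and 0.62 (0.221 to 1.52) for Camp. For Scgb3a1 it was 1.32 (0.993 to 1.74). Each ratio lay on the other side of 1 from its value over all B cells, but each interval included 1. Ngp and Camp stood at or under 3.01 CPM there in either library. The erythroid gene Alas2, 5.84-fold higher in Cre over all B cells, was at or under 1.01 CPM in single-lineage cells of either library. Others taken by the rule over all B cells on the Cre side were Timp1, Gpm6b, Ugdh and Scn7a, and in single-lineage cells their ratios were 1.94, 1.36, 1.39 and 1.41.

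Of the 12 genes named higher in Cre single-lineage B cells, 4 encode chaperones or their partners, a grouping made after the names were seen. Hsph1, which helps the HSP70 chaperones exchange nucleotide, went from 17.1 CPM in control to 67.3 CPM in Cre, a ratio of 3.95 (3.17 to 4.94), and was 3.78 (3.13 to 4.58) over all B cells. Hspa4l of the same family was 10.6 and 35.2 CPM, a ratio of 3.32 (2.48 to 4.46), but in B cells of at most 2 times their library's median depth the ratio was 1.496 (1.04 to 2.14) and no longer passed 1.5-fold. Stip1, which links HSP70 and HSP90, had a ratio of 2.31, and Hspa8, the constitutive HSP70, went from 619 to 1038 CPM, a ratio of 1.68 (1.61 to 1.75). The inducible Hspa1a and Hspa1b went from 14.2 and 10.3 CPM to 47.1 and 56.2 CPM. The same genes were higher in Cre T cells, with ratios of 3.76 for Hsph1, 2.02 for Hspa4l, 2.27 for Stip1 and 1.45 for Hspa8, and of 7.34 and 10.8 for Hspa1a and Hspa1b.

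Of 28 immediate early and dissociation genes, a list that holds heat shock genes, 3 were called higher and 0 lower over all B cells, and 5 higher and 1 lower over single-lineage cells, beside 13.1% and 11.7% of all genes called higher. Zfp36, which destabilises cytokine messages, went from 473 to 789 CPM, a ratio of 1.67, and Egr1 from 196 to 313 CPM, a ratio of 1.60. Fos and Jun, the best known of the list, had ratios of 1.04 and 1.03. In T cells 7 of the 28 were called higher and 0 lower, beside 22.1% and 1.84% of all genes. The part of cell dissociation was not tested.

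Other genes that the rule took on the Cre side in single-lineage cells were Creb1, the cAMP-responsive factor, at 51.6 and 101 CPM (ratio 1.96, and 2.28 in T cells), and Bcor, a partner of BCL6 in germinal centre cells, at 23.5 and 47.3 CPM (2.01). Chst3, which sulfates chondroitin, stood at 156 and 281 CPM (1.80), Flt3l, the ligand of FLT3, at 10.6 and 23.5 CPM (2.22), and Ugcg, which makes glucosylceramide, at 73.0 and 130 CPM (1.78). Abhd17b, a depalmitoylase, and Phf21a, a reader of unmethylated histone H3, had ratios of 1.75 and 1.81. The T cell ratios of Ugcg and Flt3l were 1.22 and 1.32, and whether they differ from those of B cells was not tested.

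On the control side, Ifi27l2a, an interferon-induced gene, went from 818 CPM in control to 433 CPM in Cre single-lineage B cells, a ratio of 0.53 (0.50 to 0.56), and the ratio was 0.55 in T cells. Slc15a2, a transporter of small peptides, went from 20.9 to 5.82 CPM, a ratio of 0.28 (0.17 to 0.43), and was 0.54 in T cells. Rbm3, a cold-inducible RNA-binding protein, stood at 646 and 400 CPM (0.62), Vps37b of the ESCRT-I complex at 385 and 245 CPM (0.64), and the linker histone gene Hist1h1e at 92.6 and 51.1 CPM (0.55). Ubb, Tmsb10, Crip1 and Snrpg had ratios of 0.63, 0.68, 0.68 and 0.66, and 0.70, 0.61, 0.61 and 0.69 in T cells. Exosc3 of the RNA exosome (0.56), Hpgd, which inactivates prostaglandins (0.59), and Ier5l (0.51) had T cell ratios of 0.997, 1.08 and 1.23. In B cells of at most 2 times the median depth Hpgd was at 0.893 (0.723 to 1.098) and not called, and over all B cells 1 cell held 10.8% of its control and 14.7% of its Cre UMIs.
Cks2, a subunit of cyclin-dependent kinases, and Pclaf, a PCNA partner, were named over all B cells, with ratios of 0.55 and 0.41 there and 0.59 and 0.65 in single-lineage cells. At most 2 times the median depth, Pclaf was on the other side of 1, at 1.67 (0.601 to 4.58). Srgn, the core of a secretory granule proteoglycan, was at 0.66 and 0.76.

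**Figure D3:**
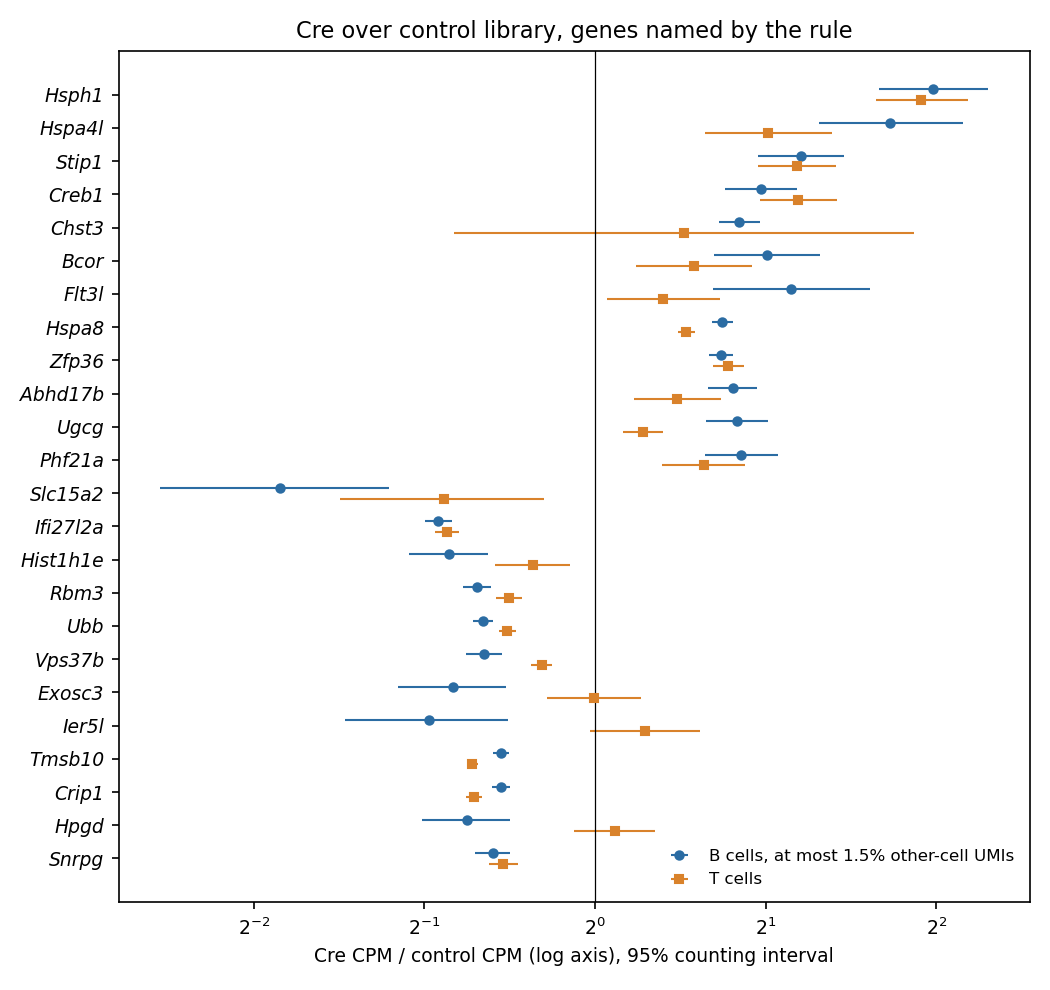
Ratio of Cre over control CPM (horizontal, log axis) for the 24 genes named over single-lineage B cells, with bars for the 95% counting interval, in those B cells (circles) and in T cells of the same libraries (squares). Hsph1 is highest at 3.95 in B cells and 3.76 in T cells, Slc15a2 is lowest at 0.28 in B cells, and in T cells Exosc3 lies at 0.997 and Hpgd and Ier5l above 1.

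B cell identity genes stayed close to the all-gene median. Of 25 genes of B cell identity and receptor signalling, 0 were called higher and 1 lower over all B cells (Pik3ap1, at 8.45 and 5.26 CPM), and the list's median log2 ratio was 0.01 above that of all genes. Any member that the rule used to choose the cells was left in this list, and its level is not a result. In single-lineage cells Pax5 went from 401 to 528 CPM, a ratio of 1.32. Pou2af1 (OBF-1), a coactivator of octamer factors, went from 260 to 407 CPM, a ratio of 1.57 (1.46 to 1.68), and was the 1 gene called there. Ebf1, an early B lineage factor, went the other way, from 1756 to 1407 CPM, a ratio of 0.80. Follicular genes (1 of 15 higher, Cr2 at 1.52) and immature genes (0 of 10 called) likewise had medians within 0.08 of that of all genes, whereas in T cells the immature list stood 0.76 above it.

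Most MHC class II genes lay below the all-gene median in Cre B cells, and none was called. Of 14 genes, 0 were called in either direction, 3 lay above the all-gene median over all B cells and 2 over single-lineage cells, and the list's median log2 ratio lay 0.27 below that of all genes in both sets of B cells. H2-Eb1 went from 1649 to 1100 CPM over all B cells, a ratio of 0.67 (0.65 to 0.69), and its ratio was 0.70 in single-lineage cells. H2-Aa stood at 2247 and 1802 CPM (0.80), H2-Ab1 at 2074 and 1625 CPM (0.78), and Cd74 at 7351 and 6415 CPM (0.87). March1, a ubiquitin ligase that removes class II from the surface, went from 71.4 to 97.2 CPM (1.36), and Ciita from 79.5 to 90.3 CPM (1.14). The summed level of the 14 genes had a ratio of 0.84 (0.83 to 0.85), and 0.87 in single-lineage cells.

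**Figure D4:**
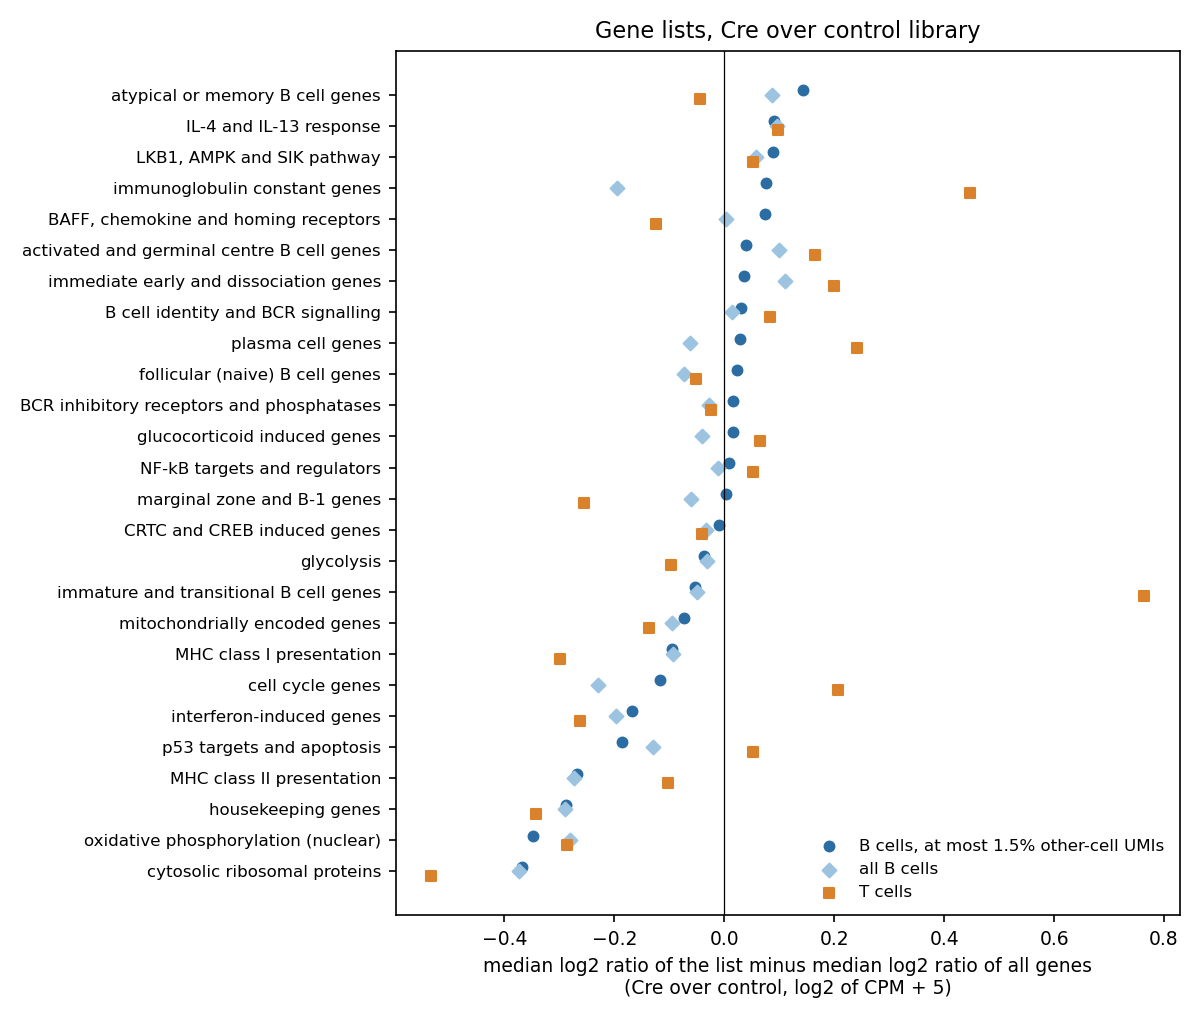
Median log2 ratio of Cre over control in each gene list less the median of all genes (horizontal, on the scale of log2 of CPM plus 5), for single-lineage B cells (circles), all B cells (diamonds) and T cells (squares). The ribosomal protein list is lowest in both B cell sets and in T cells, the B cell identity list is near 0 in B cells, and the immature list is near 0 in B cells and at 0.76 in T cells.

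Of 26 lists, 3 further ones had medians more than 0.25 below that of all genes over all B cells, and all of them did so in T cells too. They were the cytosolic ribosomal proteins at -0.37, with 0 of 28 above the all-gene median (-0.53 in T cells), the housekeeping genes at -0.29 (-0.34), and the nuclear genes of oxidative phosphorylation at -0.28 (-0.29). Rps27 and Rps29 were the lowest ribosomal genes, with ratios of 0.66 and 0.69. Interferon-induced genes were at -0.20 (-0.26 in T cells), with 1 called higher and 4 lower of 24, beside 13.1% and 2.82% of all genes. Zbp1, a sensor of viral nucleic acid, had a ratio of 0.61 alongside Ifi27l2a. Cell cycle genes were at -0.23 over all B cells, at -0.12 over single-lineage cells and at 0.21 in T cells. Over all B cells 4 of 22 were called lower, beside 2.82% of all genes. Mki67 was found in 0.508% and 0.622% of thinned single-lineage B cells.

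Genes of the LKB1 pathway were not called lower in B cells, a lineage outside the epithelium where the driver is normally active. Stk11 stood at 53.5 CPM in control and 59.1 CPM in Cre B cells, a ratio of 1.11 (0.96 to 1.28), and a 3′ tag does not show whether a transcript carries the floxed exons. Of 24 measured genes of LKB1, AMPK and the SIK kinases, 1 was called higher (Nuak1, at 7.67 and 11.97 CPM) and 0 lower over all B cells, and 4 higher and 0 lower over single-lineage cells, beside 13.1% and 11.7% of all genes called higher. Among targets of the CRTC coactivators and CREB, 5 of 14 were called higher over all B cells and 4 of 13 over single-lineage cells. In both sets 0 were called lower, beside 13.1% and 11.7% of all genes called higher and 2.82% and 2.24% lower. The medians of this list lay 0.03 and 0.01 below those of all genes. Areg, an EGF receptor ligand, stood at 7.23 and 95.9 CPM over all B cells and at 5.02 and 84.5 CPM over single-lineage cells, with a UMI in 13 control and 66 Cre B cells. One cell held 49.2% of its control and 16.8% of its Cre UMIs, and T cells stood at 50.03 and 103 CPM. Nr4a2, an orphan nuclear receptor gene, was at 14.6 and 56.8 CPM and at 11.2 and 23.3 CPM. Sik1, a well known CREB target, was not called (0.90), nor was Per1 (1.06).

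Immunoglobulin classes were read as shares of single-lineage cells thinned to 1000 UMIs. Ighm had a UMI in 95.6% of cells in control and 97.6% in Cre, Igkc in 89.5% and 88.7%, and Iglc1 in 38% and 42.4%. Among T cells, Ighm was in 10.4% and 15.1% and Igkc in 1.59% and 3.19%, and the source of these UMIs was not tested. Ighg3 was in 0.847% (0.475 to 1.39) and 1.52% (0.955 to 2.29) of B cells. It was in 0 of 1070 and 0 of 1096 T cells, with upper interval limits of 0.344% and 0.336%. Without thinning, Ighg3 was in 1 control T cell. Over all UMIs of all B cells it was in 3.05% and 4.36%, and its summed level was 13.1 and 28.5 CPM, a ratio of 2.17 (1.7 to 2.78). Igha was in 0.226% and 1.66% of B cells but in 0.0935% and 1.46% of T cells, so the share in Cre B cells was close to that of cells that cannot make it. Ighe had no UMI in either library.

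The same reading applied to Retnla, which encodes the secreted protein RELM alpha of macrophages and epithelium. A UMI was present in 0.565% of single-lineage B cells in control and 12.5% in Cre, and in 0.280% and 11.8% of T cells, so B cells stood at the level of T cells. Among maturation markers at equal depth, Fcer2a was in 20.7% and 21.7% of B cells, Ccr7, which guides cells to lymphoid tissue, in 55.6% and 52.9%, and Vpreb3 in 29.9% and 27.6%. Cr2 was in 3.39% (2.60 to 4.34) and 6.01% (4.84 to 7.36).

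**Figure D5:**
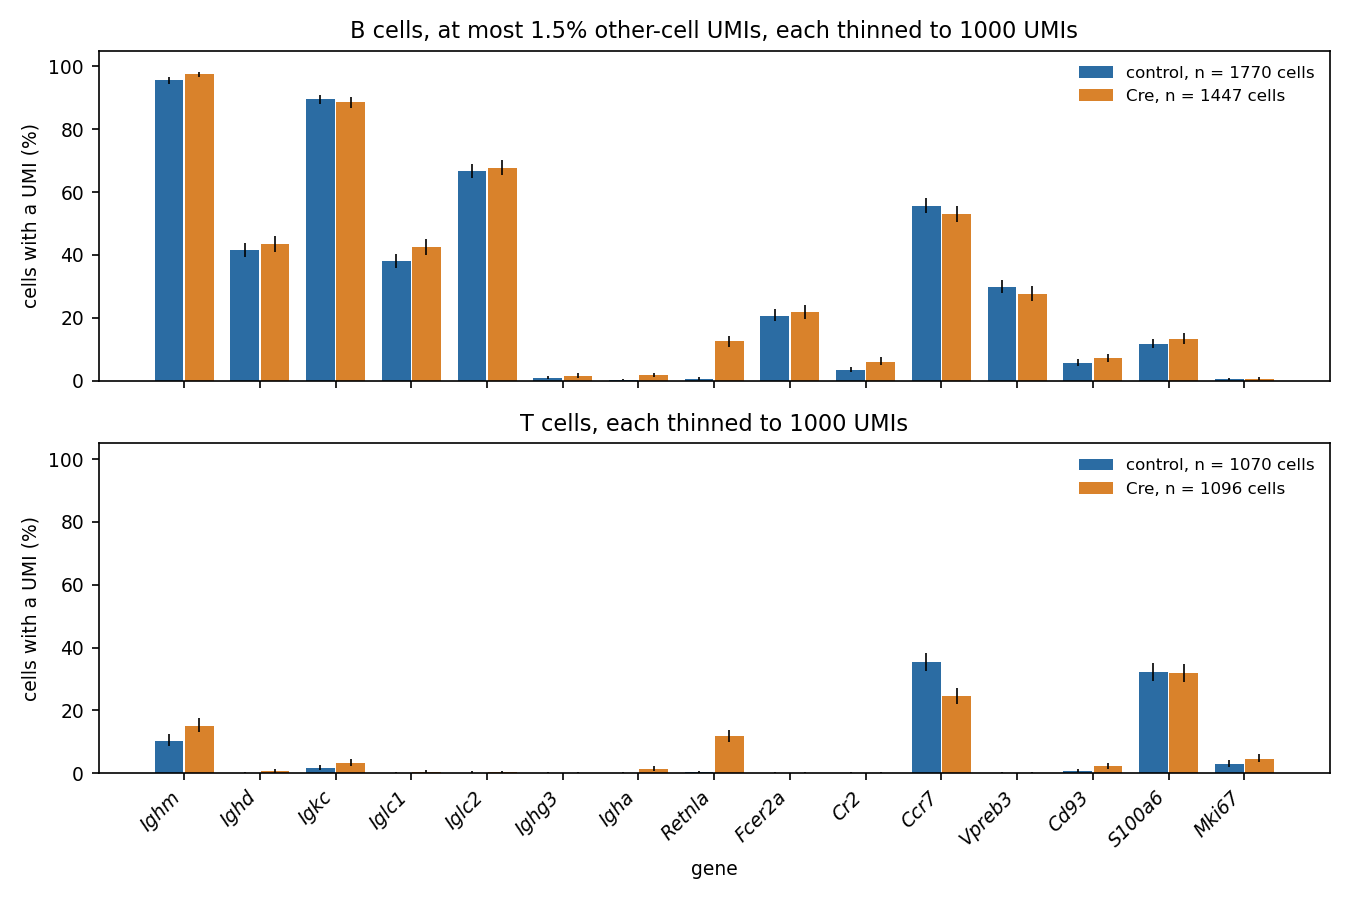
Percent of single-lineage B cells (top) and T cells (bottom) with a UMI of each gene after thinning to 1000 UMIs per cell, in the control and Cre libraries, with exact 95% binomial intervals. Ighd stands at 41.6% and 43.5% of B cells, and Retnla at 12.5% of Cre B cells beside 11.8% of Cre T cells.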

How the data were processed

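Each library held lung cells of 3 pooled mice, captured with a droplet 3′ kit. The authors deposited filtered matrices of UMI counts for 31053 genes, made with Cell Ranger 3.1.0, STAR and mm10 per the submitters' processing notes; the matrix header names software version 3.0.0. How multi-mapped reads were treated is not given in the sources used here. Of 30408 barcodes, those with at least 200 genes, 500 UMIs and at most 20% mitochondrial UMIs were kept. No doublets were removed in the main results, and RNA from outside the cell was not subtracted. Scrublet (scanpy 1.11.5) was an alternative and marked 109 control and 81 Cre B cells.

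UMIs were summed over the B cells of a library and scaled to CPM. Ratios carry exact conditional Poisson intervals (scipy 1.17.1) and shares exact Clopper-Pearson intervals. The calculation was tested on simulated Poisson counts, which meet the assumption of the ratio intervals. That test does not show how the intervals hold for genes whose UMIs lay mostly in 1 cell. A gene was called at a ratio of at least 1.5, or of at most its inverse, with at least 50 UMIs. List medians used log2 of CPM plus 5 over members with at least 20 UMIs, with no adjustment for the number of genes, since no p-value exists at 1 library per genotype.

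Named genes had at least 50 UMIs and, in the library where they were higher, at least 20 CPM and 0.5 of their CPM in other cells. They were ranked by the bound of the interval nearest 1, with 12 taken in each direction between libraries and 10 between Ighd parts. Mitochondrial, ribosomal, haemoglobin, immunoglobulin, T cell receptor, predicted and sex-linked marker genes were left out of the ranking, and Jchain, which it took, is not reported because it helped choose the cells. T cells had at least 3 Cd3 UMIs and 0 of Cd79a, Cd79b and Ms4a1. The members, lists and tests were chosen with earlier results of these data known. Some genes are not reported here.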

Additional observations from a re-analysis of the deposited data

Results flagged for a closer look

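Cells that met every other B cell rule but took at least 1% of their UMIs from Jchain, which were left out of the B cells, made up 0.876% of such cells in the Cre library (15 cells) and 0.152% in control (3 cells), and they are listed because they lie outside the comparisons.

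Ccl21a, Plin2, C5ar1, Nlrp3 and Cd300c2 had Ighd-positive over Ighd-zero ratios on opposite sides of 1 in the libraries, with intervals that did not meet, and the difference was not tested. Ccl21a had a ratio of 0.229 in control and 2.64 in Cre, and Plin2 of 0.653 and 1.79. The ratio of C5ar1 was 0.566 in control and 1.64 in Cre, that of Nlrp3 0.556 and 2.75, and that of Cd300c2 0.504 and 2.19. In single-lineage cells Ccl21a stood at 0.206 and 2.98, Plin2 at 0.648 and 1.92, and Nlrp3 at 0.550 and 2.33. T cells held Ccl21a at 61.3 and 104 CPM. The macrophage marker list had median log2 ratios of -0.29 and 1.38 over all B cells, and -0.10 and 0.68 in single-lineage cells. Over all B cells the neutrophil list had -0.30 and -0.38, and the AT2 cell list 0.30 and -0.48. The part of transcripts from other cells in these 5 genes was not tested.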

How the results depend on the processing

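Every value rests on 1 library per genotype, and no replicate could be left out. No paired analysis was possible because each genotype has 1 library. Sets limited to 1.5% other-cell UMIs or to 2 times the median depth were chosen after seeing the data. The log2 ratio of the B cell share, -0.44 as reported, was -0.63 with at least 8 marker UMIs and -0.80 with a mitochondrial limit of 10%, and moved less under the other 6 alternatives. The difference in the Ighd-positive share (Cre less control, -9.002 percentage points) was -12.1 with 8 marker UMIs and 0.121 after thinning. Genes higher in Cre (1380) numbered 854 after thinning, 739 after dividing by the median ratio, 873 in Ighd-zero cells, 494 with at least 200 UMIs and 4535 with no minimum. Genes lower in Cre (298) numbered 195 after thinning, 620 after dividing by the median ratio, 102 with 200 UMIs and 2460 with no minimum. Lists more than 0.25 from the all-gene median (4) numbered 7 in Ighd-zero cells and 1 with a pseudocount of 20. Genes higher in Ighd-positive cells (84) numbered 41 after thinning, 40 with 200 UMIs and 43 in cells of 2000 to 6000 UMIs, and those lower (104) numbered 179 with at least 3 marker UMIs and 31 with 200 UMIs. Sides of 1 changed for few genes. With 1.5% other-cell UMIs, Cre over control was 0.420 for Ngp, 0.618 for Camp and 1.32 for Scgb3a1. The intervals of these ratios all included 1. The Cre Ighd ratio of Lyz1 was then 1.81, at 8.52 against 4.71 CPM. With 2 times median depth, Ngp was 0.516 and Camp 0.765, both with intervals that included 1, and Scgb3a1 was 1.41. Pclaf, on few UMIs, was 1.67 there and Saa3 had no Cre UMI. The Cre Ighd ratios of Scgb3a1 and Lyz1 were 0.852 and 1.52 at that depth limit. After thinning, Pclaf was 1.04 and the Ighd ratios of Scgb3a1 were 0.377 and 0.270. In Ighd-positive cells Ngp was 0.200 and Camp 0.128, and in Ighd-zero cells Scgb3a1 was 1.60. In cells of 2000 to 6000 UMIs the Cre Ighd ratio of Scgb3a1 was 0.765, and with a mitochondrial limit of 10% the control Ighd ratio of Lyz1 was 1.19. The cause was not tested.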

Other observations

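Of 22 NF-kB targets and regulators, 2 were called higher over all B cells and 0 lower, a share below the 13.1% of all genes called higher. Tnf went from 80.3 CPM in control to 133 CPM in Cre, a ratio of 1.66 (1.498 to 1.85), and Nfkb1 from 142 to 224 CPM, a ratio of 1.58 (1.46 to 1.71). In T cells their ratios were 1.95 and 1.55. Rel, the NF-kB subunit most used by mature B cells, was at 0.80 and Nfkbia, its inhibitor, at 1.02. Over single-lineage cells 4 of the 22 were called higher and 0 lower, beside 11.7% and 2.24% of all genes. Among 19 genes of activated and germinal centre B cells, 5 were called higher and 1 lower, beside 13.1% and 2.82% of all genes, and the list's median log2 ratio lay 0.10 above that of all genes. The orphan receptor gene Nr4a3 went from 8.45 to 54.0 CPM, Egr3 from 36.7 to 59.7 CPM and Myc from 32.2 to 50.6 CPM. Rgs13, a regulator of G protein signals in germinal centres, went from 9.67 to 4.90 CPM and was the 1 member called lower. These gene values are over all B cells. Over single-lineage cells 5 of 18 members were called higher and 1 lower, and the list's median lay 0.04 above that of all genes.

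Of 14 genes of the response to interleukin-4 and interleukin-13, 3 were called higher and 0 lower over all B cells, a share not far from the 13.1% of all genes. Cish, a STAT5-induced inhibitor, went from 11.1 to 23.6 CPM (2.12), Bcl2l1 from 8.89 to 20.9 CPM (2.34), and Ccl17 from 4.45 to 14.9 CPM (3.34). The receptor chain Il4ra was at 1.15 and Stat6 at 1.21. These gene values are over all B cells, and over single-lineage cells 4 of the 14 were called higher and 0 lower. Itgax (CD11c), which marks an atypical memory subset, went from 10.7 to 23.6 CPM (2.21), and from 7.74 to 15.95 CPM in single-lineage cells, while Tbx21 of the same subset was at 1.33 and 0.73 CPM.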
